A study of Bos taurus with 129 samples.

Results

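Whole blood gene expression at day 45 was compared with that at day 28 in every animal of a stocker cattle study. The comparison holds the libraries whose labels give day 28 or day 45, 52 libraries against 77 on the other days of the series, and each of the 26 cattle has a library on both days. Commercial crossbred beef steers were bought, hauled to mimic long transport, vaccinated against respiratory viruses and given doramectin at day 0, and vaccinated again before day 28. Pens were assigned to 3 mineral supplements, and blood was drawn into Tempus tubes, which lyse the cells and hold the RNA, at 5 times up to day 60. INR cattle were fed sulfate sources of copper, cobalt, manganese and zinc, AAC cattle were fed organic complexed sources of the same metals, and COMBO cattle were fed the complexed sources and drenched with a trace mineral product before shipment, on day 0 and with any treatment for disease. The label for disease is No in 12 cattle, called healthy here, and Yes in 14, called BRD cattle here after bovine respiratory disease. The healthy cattle were 4 AAC, 4 COMBO and 4 INR animals and the BRD cattle 4 AAC, 3 COMBO and 7 INR animals. All healthy COMBO cattle stood in pen 5 at enrollment and all BRD COMBO cattle in pen 6, so disease and pen cannot be told apart there. Among INR cattle, pen 7 held only BRD animals while pens 3 and 4 held both kinds, so disease and pen partly overlap there too. Cattle were later rotated between pens, and the day of diagnosis of each animal was not given in the sources used here.

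Blood RNA comes from neutrophils, monocytes, lymphocytes, eosinophils and platelets, and in cattle a large share of the lymphocytes are gamma-delta T cells, many of which carry receptors of the WC1 family. Heat shock chaperones such as HSPA8 and DNAJA1 keep proteins folded and are induced by heat and other stress, while CIRBP and RBM3 encode RNA-binding proteins known for rising when cells are cooled. Immediate early genes such as ATF3 and EGR2 encode transcription factors that are switched on within minutes of a stimulus, and glucocorticoids induce a further set that includes TSC22D3 and ANXA1.

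Total counts ranged from 36848682 to 59809837 per library at day 28 (median 47227895) and from 39497591 to 61692136 at day 45 (median 45351476.5), and 13 of 26 cattle had the larger total at day 45. Library numbers in the labels run from 53 to 78 at day 28 and from 79 upward at day 45, so library order and day cannot be told apart. The pen at enrollment, the supplement and the disease label belong to the animal, and their constant effects cancel in a comparison within animals. Effects of supplement or disease that change between the days do not cancel. No group went without a supplement, so day and time on supplement cannot be told apart. Hour of collection and air temperature were not given in the sources used here. Of 15 markers of tissues other than blood, 6 were tested and 0 were called, and ALB, APOA1, SFTPC, SFTPB, KRT5, KRT14 and INS had at most 17 counts over the 52 libraries. Collagen transcripts (COL1A1, COL1A2 and COL3A1 summed), which mark connective tissue, had a median of 2.09 CPM at day 28 (range 0.0709 to 1122) and 5.22 CPM at day 45 (range 0 to 187). They were over 100 CPM in 4 libraries at day 28, of animals 30, 21, 40 and 34, and in 1 at day 45, of animal 31. Without these 5 cattle 5394 genes were called, against 6283 in all 26, and 5166 of them were among the 6283, all in the same direction. The heat shock list then had 20 of 23 called higher and the platelet list 11 of 20 lower, as in all cattle. Other lists had fewer called. Immediate early genes had 15 higher (18 in all cattle), glucocorticoid-induced genes 10 (13) and type I interferon-stimulated genes 7 (11). Mitochondrially encoded genes had 7 higher (9), plasma cell markers 4 lower (6) and zinc and manganese genes 2 lower (5). Neutrophil markers had more called, 7 higher (6).

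Of 16294 genes tested with the animal as a block, 6283 genes (38.6%) differed between the days at a false discovery rate (FDR) below 0.10 by edgeR's quasi-likelihood test with Benjamini-Hochberg adjustment. Expression was higher at day 45 in 2743 genes (16.8%) and lower in 3540 genes (21.7%). Every count of called list members below is to be read beside these shares. Most changes were small: the median size of the log2 change among called genes was 0.19, 436 genes changed by at least 0.5 and 33 by at least 1, of which 16 were higher and 17 lower. The genes called higher had a median level of 5.79 on the log2 CPM scale (CPM, counts scaled to a common library total with TMM factors, prior count 2), those called lower 3.53, and all tested genes 4.14. The median log2 change over all tested genes was -0.01. In 15 genes the level was higher at day 45 in all 26 cattle and in 21 genes it was lower in all 26, and 0 genes had days whose ranges did not overlap. In a bulk sample, fewer cells of a type and less RNA per cell cannot be told apart, and this holds for every level below.

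The genes of smallest p rose or fell by a modest amount in nearly every animal. AFTPH, which encodes aftiphilin, a protein of clathrin-coated vesicles, had 81.67, 89.5 and 107.3 CPM at day 28 (lowest, median and highest) and 90.2, 102.2 and 124.6 CPM at day 45. The ranges of the days overlapped, but the level was higher at day 45 in 26 of 26 cattle (log2 change 0.20 ± 0.02, FDR = 5.87e-08; the error is the standard error, SE). UBE2R2, a ubiquitin-conjugating enzyme, rose from 131.3 CPM (106.9 to 161) to 151 CPM (118.7 to 191), a log2 change of 0.19 ± 0.02, FDR = 6.27e-07, with 26 of 26 cattle higher. PNRC1, a nuclear receptor coactivator, rose from 471 CPM (406 to 564) to 566 CPM (438 to 716) (log2 change 0.26 ± 0.03, FDR = 8.71e-07). ANTXR2, a receptor for anthrax toxin that binds matrix proteins, had the widest change among the 10 rising genes, from 107.2 CPM (69.2 to 159) to 148 CPM (74.1 to 207), a log2 change of 0.39 ± 0.05, FDR = 2.05e-06 with 25 of 26 cattle higher. The other 6 rising genes were PPP2R2A, a regulatory subunit of protein phosphatase 2A, MSL2 and L3MBTL3, which act on chromatin, GPBP1L1, the mitochondrial gene COX1 and CARD6, with log2 changes between 0.14 ± 0.02 and 0.32 ± 0.04.

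Among the falling genes, MTRF1L, which encodes a release factor of mitochondrial translation, had 26.9, 30.92 and 39.5 CPM at day 28 (lowest, median and highest) and 21.9, 25.4 and 30.7 CPM at day 45. Its days overlapped, and all 26 cattle were lower at day 45 (log2 change -0.29 ± 0.03, FDR = 5.91e-08). MLYCD, malonyl-CoA decarboxylase, fell from 25.9 CPM (19.7 to 30.4) to 21.9 CPM (17.2 to 24.8) (log2 change -0.24 ± 0.02, FDR = 4.70e-07), and IDUA, a lysosomal enzyme, fell from 34.9 CPM (29.6 to 41.6) to 30.5 CPM (23.9 to 39.4) (log2 change -0.22 ± 0.02, FDR = 5.21e-07). Both were lower in 26 of 26 cattle. The zinc finger genes ZNF784 and ZNF346, the esterase IAH1, the condensin II subunit NCAPD3, the transfer RNA deaminase ADAT2 and EXD3 had log2 changes between -0.43 ± 0.05 and -0.26 ± 0.03, and the other gene of these 10 is CIRBP.

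**Figure D1:**
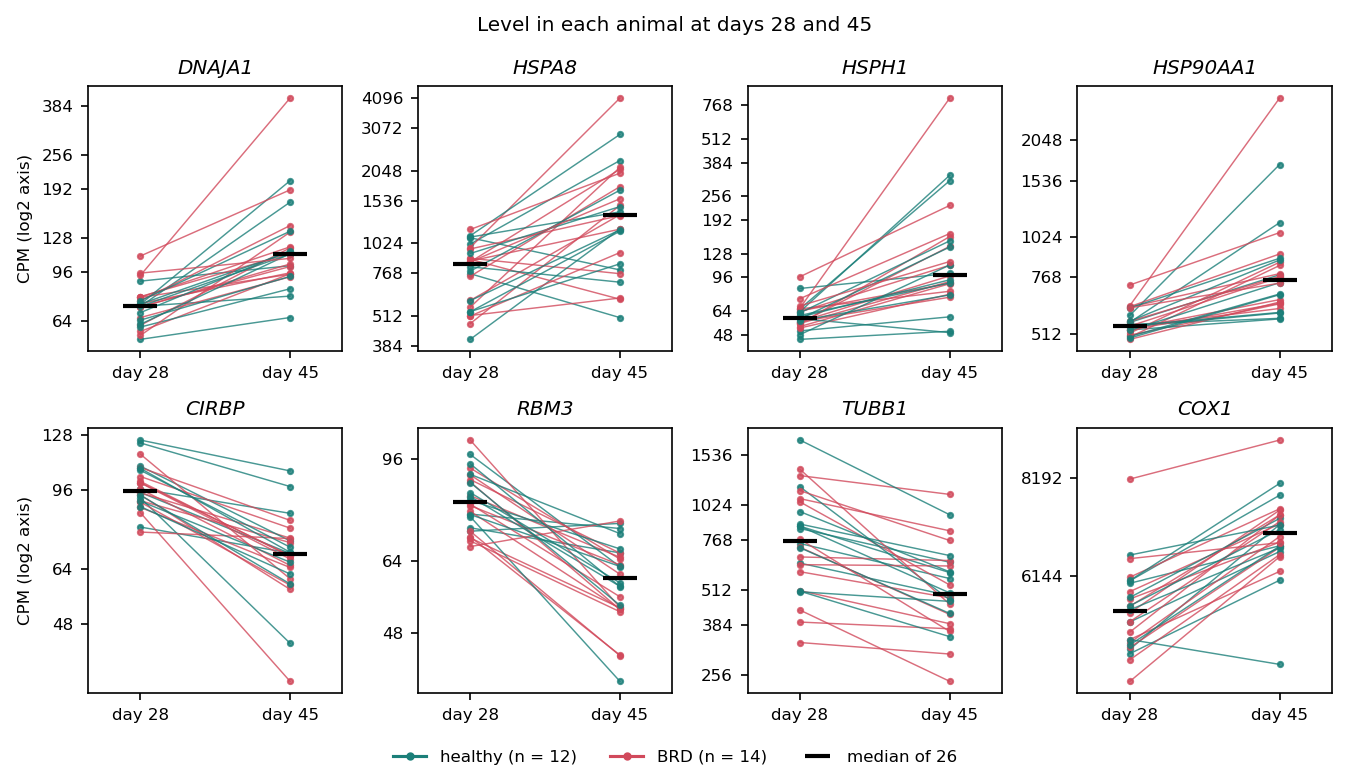
Levels of 8 genes in each of the 26 cattle at days 28 and 45, in CPM after TMM scaling on a log2 axis, with a line for each animal, colour for the disease label and a bar for the median. DNAJA1, HSP90AA1 and, in 25 of 26 cattle each, HSPH1 and COX1 rise from left to right, HSPA8 rises in 21, CIRBP and TUBB1 fall in all 26 and RBM3 in 24.

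Genes called in either set of cattle, healthy or BRD, nearly all moved the same way in the other. Fitted alone, the 12 healthy cattle gave 3186 called genes of 16060 tested (19.8%), 1317 higher (8.2%) and 1869 lower (11.6%), and the 14 BRD cattle gave 3142 of 16220, 1427 higher (8.8%) and 1715 lower (10.6%). Of 3181 genes called in healthy cattle and tested in both sets, 3095 (97.3%) had the same sign in BRD cattle and 1508 (47.4%) were called there in the same direction. Of 3129 genes called in BRD cattle and tested in both, 3012 (96.3%) had the same sign in healthy cattle, and the 1508 shared calls made up 48.2% of them. These 1508 genes were 644 higher and 864 lower at day 45. By edgeR 0 genes were called in opposite directions (6 by DESeq2 and 1 by limma voom), and over all 15951 genes tested in both sets 74.2% had the same sign and the Pearson correlation of the log2 changes across genes was 0.50 (0.39 with DESeq2 and 0.19 without a filter on low counts). The 2 sets share no animal, but genes of 1 library are not independent of each other. Genes called in healthy cattle had a median change of 0.24 in size there and 0.17 in BRD cattle, and genes called in BRD cattle had 0.23 there and 0.17 in healthy cattle.

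**Figure D2:**
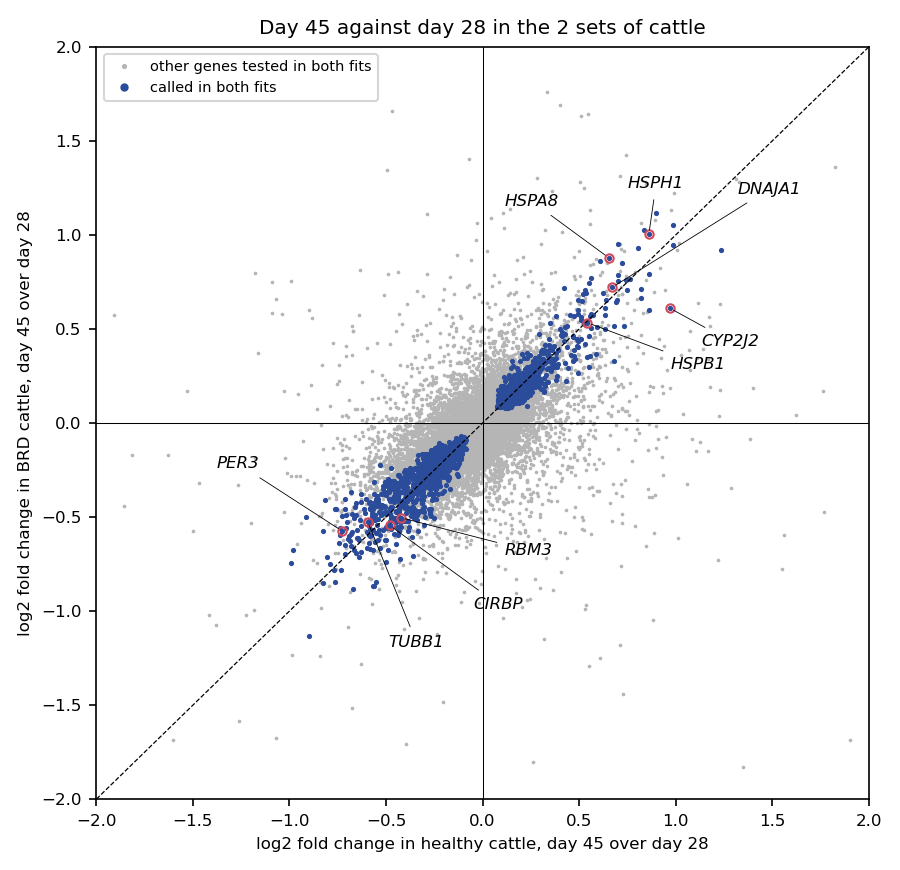
Log2 fold change from day 28 to day 45 in healthy cattle (horizontal axis) against that in BRD cattle (vertical axis) for 15951 genes tested in both fits; 16 genes lie outside the axes, blue points are the 1508 genes called in both fits, red rings mark the named genes and the dashed line is equality. All blue points lie in the lower left or upper right part, around the dashed line.

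The difference itself was tested in a fit of both sets together, as the change in BRD cattle minus the change in healthy cattle. By edgeR, 0 genes were called for this difference, 479 genes had an unadjusted p below 0.05, and the smallest FDR was 0.924. DESeq2 called 6 genes and limma voom 0. The 95% intervals of the difference for the 20 rising and falling genes of smallest p all lay between -0.27 and 0.26 log2. A difference larger than this was outside the interval for these genes, but smaller differences were not detectable. These genes were picked for a small p over all cattle, which favours small errors and like changes in both sets. Their intervals thus do not stand for other genes and are no test of agreement. Over all tested genes the median SE of the difference was 0.12 log2. In simulated data, edgeR recovered 8.96% of genes with a true difference of 0.25 log2, 44.8% at 0.5 and 76.9% at 1 for this contrast. The simulation changed only 67, 67 and 65 genes at these sizes and drew each gene independently, so the rates may not carry over to these data. A low count of calls thus does not show that the 2 sets changed alike in every gene.

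The 5 genes of smallest p for the difference did not pass the adjusted threshold. They were picked for this same difference, so their intervals, unadjusted p-values and counts of cattle do not show that one exists. ARFGEF3, a factor of the guanine exchange family, had 0.232, 0.659 and 1.43 CPM at day 28 and 0.189, 0.415 and 1.12 CPM at day 45 in healthy cattle (lowest, median and highest). In BRD cattle it had 0.119, 0.521 and 2.01 CPM at day 28 and 0.198, 0.550 and 2.56 CPM at day 45, and it was higher at day 45 in 0 of 12 healthy and 9 of 14 BRD cattle. The difference was 0.73 ± 0.18 (95% interval 0.36 to 1.10, unadjusted p = 0.000391). The ranges of the days overlapped in both sets. STX17, a syntaxin of autophagosome fusion, had 36.1, 43.8 and 56.8 CPM at day 28 and 29.5, 38.8 and 50.8 CPM at day 45 in healthy cattle and 23.2, 36.1 and 55.5 CPM at day 28 and 31.3, 40.2 and 49.7 CPM at day 45 in BRD cattle. It was higher at day 45 in 1 of 12 healthy and 11 of 14 BRD cattle, a difference of 0.46 ± 0.12 (95% interval 0.22 to 0.70). The other 3 were CKAP2, a protein of the mitotic spindle with a difference of -1.62 ± 0.42, C18H16orf87 with 0.24 ± 0.06 and LILRA4, a receptor of plasmacytoid dendritic cells, with 2.62 ± 0.69. CKAP2 and LILRA4 were also among the 6 genes DESeq2 called, the rest of which were LOC101904468, LOC112446418 and the small RNA genes rna-NR_031031.1 and TRNAV-CAC-21, named here after their values were seen. The small RNA genes had extreme log2 differences by DESeq2, 13.5 and -13.3, against unadjusted p of 0.149 and 0.00626 by edgeR.

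Heat shock chaperones rose together and in every animal. Of 23 tested genes of this list, 20 were called higher and 0 lower at day 45, beside 16.8% higher over all genes, and the median log2 change was 0.46. The mean log2 level of the list was higher at day 45 in 26 of 26 cattle, by 0.09 to 1.90. DNAJA1, an HSP40 cochaperone, had 54.9, 72.3 and 110.1 CPM at day 28 (lowest, median and highest) and 65.9, 112.1 and 412 CPM at day 45. The highest day 28 libraries reached into the day 45 range, yet 26 of 26 cattle were higher at day 45 (log2 change 0.69 ± 0.09, FDR = 2.52e-06, a 1.62-fold change). HSPB1, a small heat shock protein, rose from 196 CPM (139 to 462) to 285 CPM (192 to 752) (log2 change 0.53 ± 0.08, FDR = 1.69e-05). STIP1, which links HSP70 to HSP90, rose from 74.46 CPM (61.1 to 123.5) to 102.1 CPM (71.1 to 324) (log2 change 0.57 ± 0.08, FDR = 1.83e-05), and FKBP4, an HSP90 cochaperone of steroid receptors, rose from 66.4 CPM (52.2 to 147) to 94.6 CPM (63.4 to 364) (log2 change 0.62 ± 0.10, FDR = 3.20e-05).

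Several further members were named after their values were seen, because they are the best known of the list. HSPA8, the constitutive HSP70, rose from 837 CPM (408 to 1168) to 1339 CPM (502 to 4108) (log2 change 0.77 ± 0.14, FDR = 0.0002) in 21 of 26 cattle. HSPH1, an HSP110 exchange factor, rose from 58.8 CPM (45.37 to 96.8) to 99.2 CPM (49.2 to 838) (log2 change 0.93 ± 0.15, FDR = 5.89e-05), and HSP90AA1 rose from 542 CPM (492 to 727) to 753 CPM (569.6 to 2777) (log2 change 0.52 ± 0.09, FDR = 5.61e-05) in 26 of 26 cattle. HSPA1A, the inducible HSP70, had 57.7, 100.96 and 192 CPM at day 28 (lowest, median and highest) and 76.2, 163 and 4409.9 CPM at day 45. It was higher in 26 of 26 cattle (log2 change 0.96 ± 0.21, FDR = 0.00109), and the highest library, a BRD animal, stood far above the median. HSPA1A has a near-identical copy, so its share of reads is uncertain. HSPA6, a stress-inducible HSP70 that is not in the list, had a median of 0.807 CPM at day 28 (range 0.440 to 3.21) and 2.81 CPM at day 45 (range 0.461 to 334) (log2 change 1.90 ± 0.42, FDR = 0.00113). The list also holds HSF1 and HSF2, which encode transcription factors for such genes and not chaperones, and both are among its 20 members called higher. They moved less than the chaperones named above: HSF1 had a log2 change of 0.07 ± 0.03, FDR = 0.0991 and HSF2 of 0.16 ± 0.04, FDR = 0.00233.

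The chaperone increase was seen in both disease sets and in all supplements. In healthy cattle 18 of 23 genes were called higher and in BRD cattle 18, with medians of 0.47 in healthy and 0.45 in BRD cattle. For DNAJA1 the change was 0.67 ± 0.11 in healthy and 0.72 ± 0.12 in BRD cattle, and the 95% interval of the difference ran from -0.30 to 0.41. The median over the list was 0.52 in AAC, 0.51 in COMBO and 0.37 in INR cattle. The largest change in the mean level of the list, 1.90, was in animal 18, a BRD COMBO animal, followed by 1.11 in animal 34, a healthy AAC animal, and the smallest, 0.087, was in animal 54. Leaving out each animal in turn gave 18 to 21 called members and a median of 0.41 to 0.50, the lowest without animal 18. Chaperones of the endoplasmic reticulum, induced by a separate pathway, were listed together with stress-response genes such as ATF4 and SESN2. This mixed list did not move as a block: 7 of 24 were called higher and 1 lower, with a median of 0.02. Of its called members, ATF4, a stress transcription factor, had 0.13 ± 0.03, FDR = 0.00197 and HERPUD1 0.11 ± 0.03, FDR = 0.00769. CALR, a chaperone, had 0.14 ± 0.04, FDR = 0.0126 and SESN2 0.13 ± 0.04, FDR = 0.0170.

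The cold-inducible RNA-binding proteins moved the other way. CIRBP had 77.4, 95.8 and 124.5 CPM at day 28 (lowest, median and highest) and 35.8, 68.9 and 106.1 CPM at day 45, and all 26 cattle were lower at day 45. Its log2 change was -0.52 ± 0.05, FDR = 4.70e-07, a 0.698-fold level, with -0.48 ± 0.07 in healthy and -0.54 ± 0.07 in BRD cattle. RBM3, among the 3 falling genes of smallest p in BRD cattle, fell from 80.8 CPM (67.7 to 103.6) to 59.6 CPM (39.5 to 74.99) (log2 change -0.47 ± 0.05, FDR = 9.76e-07) and was lower in 24 of 26 cattle. The days overlapped for both genes, and the median at day 45 lay below the lowest day 28 library. EWSR1, another RNA-binding protein, named after its values were seen, fell from 475 CPM (374 to 601) to 387 CPM (324 to 487) (log2 change -0.26 ± 0.03, FDR = 1.14e-06). Splicing factors as a list were mixed, with 11 of 60 called higher (21 without animal 54) and 19 lower: SRSF2 (log2 change -0.29 ± 0.04, FDR = 2.24e-05), HNRNPDL (-0.37 ± 0.05, FDR = 2.32e-05) and PRPF4 (-0.13 ± 0.02, FDR = 6.48e-05) fell, and HNRNPC (0.14 ± 0.02, FDR = 7.16e-06) rose.

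Immediate early genes rose. Of 25 tested, 18 were called higher and 0 lower, with a median log2 change of 0.29, and the mean level of the list was higher at day 45 in 23 of 26 cattle. ATF3, a stress-induced transcription factor, had 3.66, 5.41 and 10.1 CPM at day 28 (lowest, median and highest) and 5.85, 8.23 and 14.4 CPM at day 45. The days overlapped, and 24 of 26 cattle were higher (log2 change 0.52 ± 0.08, FDR = 3.12e-05). IER5 rose from 162 CPM (126.01 to 189) to 191 CPM (144 to 248) (log2 change 0.26 ± 0.03, FDR = 2.54e-06). BTG2, an antiproliferative gene, rose from 49.4 CPM (39.6 to 64.4) to 56.4 CPM (45.1 to 79.26) (log2 change 0.23 ± 0.03, FDR = 1.59e-05), and ZFP36, which destabilizes cytokine messenger RNAs, rose from 203 CPM (154 to 297) to 246 CPM (184 to 479) (log2 change 0.33 ± 0.05, FDR = 3.08e-05). Not all members moved: NR4A1 had a log2 change of -0.02 ± 0.08, FDR = 0.881 and IER2 of 0.05 ± 0.04, FDR = 0.374. Healthy cattle had 18 of the 25 called higher and BRD cattle 13, with medians of 0.32 in healthy and 0.16 in BRD cattle; the difference between the sets was not called for any gene.

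Genes induced by glucocorticoids also rose: 13 of 22 were called higher and 0 lower, with a median log2 change of 0.18 and a higher mean level in 23 of 26 cattle. ANXA1, which encodes the anti-inflammatory annexin A1, rose from 352 CPM (202 to 623) to 495 CPM (232 to 977) (log2 change 0.46 ± 0.06, FDR = 3.14e-06). Its ranges overlapped widely, with 24 of 26 cattle higher. TXNIP, a brake on glucose uptake, rose from 982 CPM (779 to 1665) to 1392 CPM (680.2 to 2750.4) (log2 change 0.45 ± 0.07, FDR = 2.00e-05), TSC22D3 rose by 0.27 ± 0.05, FDR = 0.000548 and NFKBIA, an inhibitor of NF-kB, by 0.34 ± 0.07, FDR = 0.000982 on the log2 scale. FKBP5 and PER1, both strong glucocorticoid targets, had log2 changes of 0.07 ± 0.06, FDR = 0.454 and -0.04 ± 0.04, FDR = 0.444 and were not called. DUSP1 belongs to both this list and the immediate early list, and PER1 also to the clock list.

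Clock genes were mixed, with 3 of 21 called higher and 5 lower and a median of -0.05. PER3, a clock repressor, had 9.23, 32.1 and 62.17 CPM at day 28 (lowest, median and highest) and 9.51, 19.38 and 42.7 CPM at day 45. It fell in 24 of 26 cattle (log2 change -0.65 ± 0.09, FDR = 1.35e-05), with -0.73 ± 0.09 in healthy and -0.57 ± 0.15 in BRD cattle. PER2 fell by less (log2 change -0.21 ± 0.05, FDR = 0.00266), while NFIL3 (0.41 ± 0.10, FDR = 0.00237) and CSNK1D (0.08 ± 0.02, FDR = 0.00156) rose. The core activators CLOCK and ARNTL had log2 changes of -0.05 ± 0.04 and 0.04 ± 0.03 and were not called.

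**Figure D3:**
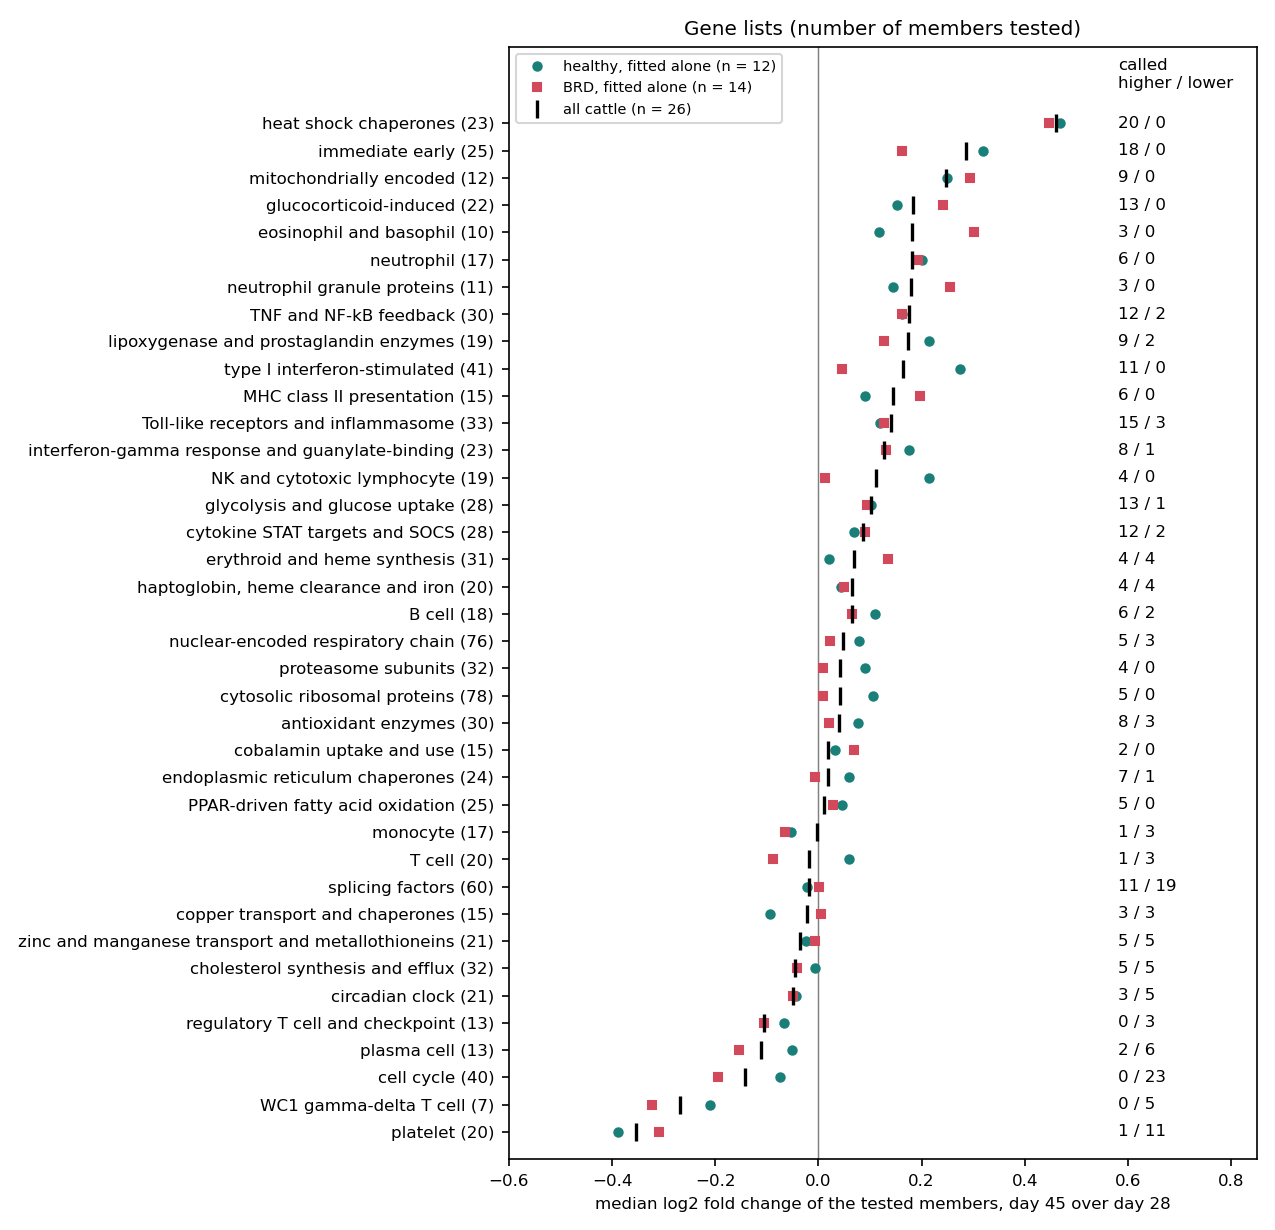
Median log2 fold change from day 28 to day 45 over the tested members of each gene list except that of tissues other than blood, in all cattle (bars), healthy cattle (circles) and BRD cattle (squares), with the number of members called higher and lower in all cattle at the right. Heat shock chaperones stand at the top at 0.46 and platelet markers at the bottom at -0.35.

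Transcripts encoded by the mitochondrial genome rose. Of 12 tested, 9 were called higher and 0 lower, with a median log2 change of 0.25 and a higher mean level in 23 of 26 cattle, all 14 BRD cattle among them. COX1, a subunit of cytochrome c oxidase, had 4511, 5539.8 and 8167 CPM at day 28 (lowest, median and highest) and 4742, 6969 and 9157 CPM at day 45. The days overlapped, and 25 of 26 cattle were higher (log2 change 0.32 ± 0.04, FDR = 1.28e-06). ND1 (0.29 ± 0.04, FDR = 1.78e-05), ND2 (0.27 ± 0.04, FDR = 1.69e-05) and COX2 (0.31 ± 0.05, FDR = 2.85e-05) changed by similar amounts. ATP6 and ATP8, which overlap each other in the mitochondrial genome, were not called, with wide errors (log2 changes 0.68 ± 0.63 and 0.19 ± 0.44). In the nuclear-encoded respiratory chain, 5 of 76 genes were called higher and 3 lower, with a median of 0.05. That count rested on animal 54, without which 29 of the 76 were called higher (38.2%) and the median was 0.08. Of these, ATP5F1B rose by 0.14 ± 0.04, FDR = 0.0101 and NDUFB1 by 0.19 ± 0.06, FDR = 0.0147, and NDUFC1 (-0.19 ± 0.04, FDR = 0.000653) and NDUFC2 (-0.10 ± 0.03, FDR = 0.00447) fell, on the log2 scale.

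Platelet transcripts fell. Of 20 tested markers 11 were called lower and 1 higher, beside 21.7% lower over all genes, and the median log2 change was -0.35. The mean log2 level was lower at day 45 in 21 of 26 cattle. TUBB1, the beta tubulin of platelets, had 334, 761 and 1736 CPM at day 28 (lowest, median and highest) and 243, 494 and 1115 CPM at day 45. Its ranges overlapped and cattle differed widely, but all 26 cattle were lower at day 45 (log2 change -0.56 ± 0.08, FDR = 8.66e-06). PF4, platelet factor 4, fell from 377 CPM (187 to 912) to 250.4 CPM (108.7 to 619.9) (log2 change -0.49 ± 0.07, FDR = 1.64e-05), MPIG6B, an inhibitory platelet receptor, fell from 319.9 CPM (117.99 to 621) to 214 CPM (63.7 to 422) (log2 change -0.55 ± 0.08, FDR = 9.94e-06), and GNG11 fell from 100.4 CPM (42.2 to 198) to 72.8 CPM (31.11 to 143) (log2 change -0.50 ± 0.06, FDR = 2.93e-06). The member called higher was F13A1, coagulation factor XIII subunit A, which monocytes also express (log2 change 0.22 ± 0.07, FDR = 0.0245). PPBP and ITGA2B had log2 changes of -0.09 ± 0.06 and -0.02 ± 0.04 and were not called. In healthy cattle 12 and in BRD cattle 10 members were called lower, with medians of -0.39 in healthy and -0.31 in BRD cattle.

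Markers of WC1 gamma-delta T cells fell, 5 of 7 called lower and 0 higher, with a median of -0.27. WC1-12 had 34.01, 98.02 and 138 CPM at day 28 (lowest, median and highest) and 27.1, 69.98 and 110.20 CPM at day 45. The days overlapped, and 24 of 26 cattle were lower (log2 change -0.48 ± 0.07, FDR = 1.61e-05). WC1.3 (log2 change -0.27 ± 0.06, FDR = 0.00108) and SOX13 (-0.30 ± 0.05, FDR = 0.000146), a transcription factor of gamma-delta T cells, also fell. CD163L1 had a median of 3.22 CPM at day 28 (range 0 to 14.7) and 0.0708 CPM at day 45 (range 0 to 12.1) (log2 change -2.16 ± 0.63, FDR = 0.0120). WC1 genes form a multigene family of near-identical copies, so the split of reads among WC1-12, WC1.3 and CD163L1 is uncertain. General T cell markers had 1 of 20 called higher, TRAT1 (0.13 ± 0.05, FDR = 0.0447), and 3 lower, CD28 (-0.13 ± 0.05, FDR = 0.0445), BCL11B (-0.16 ± 0.06, FDR = 0.0450) and LEF1 (-0.11 ± 0.05, FDR = 0.0707). Markers of regulatory T cells and checkpoints had 0 of 13 called higher and 3 lower, a share near the 21.7% over all genes: TNFRSF18 (-0.26 ± 0.05, FDR = 0.000175), FOXP3 (-0.26 ± 0.07, FDR = 0.00516) and TNFRSF4 (-0.22 ± 0.08, FDR = 0.0269).

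Cytotoxic lymphocyte markers had 4 of 19 called higher, near the 16.8% over all genes (7 without animal 29), and 0 lower: XCL2 (0.42 ± 0.09, FDR = 0.000697), FASLG (0.35 ± 0.08, FDR = 0.000967), PRF1, the pore-forming perforin (0.24 ± 0.08, FDR = 0.0248), and KLRF1 (0.25 ± 0.11, FDR = 0.0731). B cell markers had 6 of 18 called higher and 2 lower. Among them BLK, a B cell kinase, fell from 115.5 CPM (50.2 to 181) to 88.1 CPM (51.46 to 134) (log2 change -0.38 ± 0.05, FDR = 7.66e-06), whereas BANK1 (0.17 ± 0.05, FDR = 0.0189), TNFRSF13C, the BAFF receptor (0.20 ± 0.06, FDR = 0.0211), and PAX5 (0.12 ± 0.04, FDR = 0.0415) rose. The call for LEF1 was lost when some single animals were left out, for example without animal 49 (FDR = 0.134), and that for KLRF1, for example without animal 50 (FDR = 0.119).

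Cell cycle genes fell, 23 of 40 called lower and 0 higher, with a median log2 change of -0.14. The mean level of the list was lower at day 45 in 20 of 26 cattle. TYMS, thymidylate synthase, had 14.8, 23.03 and 33.9 CPM at day 28 (lowest, median and highest) and 13.4, 18.8 and 28.4 CPM at day 45. Its days overlapped and 24 of 26 cattle were lower (log2 change -0.27 ± 0.04, FDR = 1.86e-05). CDC45 (-0.29 ± 0.05, FDR = 3.83e-05) and GINS2 (-0.27 ± 0.06, FDR = 0.00063), parts of the replicative helicase, and CCNE2, cyclin E2 (-0.22 ± 0.04, FDR = 0.000407), fell as well, and so did MKI67 (-0.16 ± 0.05, FDR = 0.00922). In healthy cattle 4 members were called lower and in BRD cattle 21, with medians of -0.07 in healthy and -0.20 in BRD cattle, but the difference between the sets was called for 0 genes and the counts alone do not show one. Plasma cell markers had 6 of 13 called lower and 2 higher. TNFRSF17, the BCMA receptor of plasma cells, fell from 2.70 CPM (1.69 to 7.23) to 2.22 CPM (1.12 to 6.09) (log2 change -0.48 ± 0.11, FDR = 0.00157), and JCHAIN, the joining chain of secreted antibodies, fell from 549 CPM (278 to 1093) to 418 CPM (231 to 1101) (log2 change -0.27 ± 0.09, FDR = 0.0227). SEC11C fell (-0.19 ± 0.06, FDR = 0.0121), and CD38 (0.16 ± 0.04, FDR = 0.00272) rose. Healthy cattle alone had 0 plasma cell markers called and BRD cattle 1 higher and 7 lower.

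Granulocyte markers tended up where they were called. Neutrophil markers had 6 of 17 called higher, beside 16.8% over all genes, and 0 lower. CXCR1, an interleukin-8 receptor, rose from 78.2 CPM (44.9 to 196) to 108.897 CPM (63.1 to 259.7) (log2 change 0.61 ± 0.13, FDR = 0.000948), and VNN2 (0.42 ± 0.08, FDR = 0.000495) and ALOX5AP (0.44 ± 0.09, FDR = 0.000862) rose by less. The abundant calgranulins S100A8 and S100A9 had log2 changes of 0.13 ± 0.09 and 0.06 ± 0.11 and were not called. CXCR2 (-0.31 ± 0.37) and CYBB (-0.11 ± 0.24) had negative changes with wide errors. Both were higher in 13 cattle and lower in 13, and neither was called. Granule protein genes had 3 of 11 called higher, PTX3 (0.83 ± 0.24, FDR = 0.00922), MPO (0.72 ± 0.25, FDR = 0.0310) and ELANE (0.58 ± 0.21, FDR = 0.0378), all at low levels. The summed level of the neutrophil list was 2524 to 6185 CPM (median 3750.0) at day 28 and 2891 to 5966 CPM (median 4208) at day 45.

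Eosinophil and basophil markers had 3 of 10 called higher and 0 lower. IL5RA, the interleukin-5 receptor, had 1.597, 8.97 and 19.1 CPM at day 28 (lowest, median and highest) and 3.17, 14.8 and 85.1 CPM at day 45, and rose in 23 of 26 cattle (log2 change 1.01 ± 0.24, FDR = 0.00229). ALOX15, a lipoxygenase abundant in eosinophils, rose from 48.03 CPM (4.86 to 122.99) to 60.17 CPM (16.1 to 398) (log2 change 0.98 ± 0.26, FDR = 0.00516), and CEBPE, a granulocyte transcription factor, rose from 2.88 CPM (0.691 to 5.53) to 4.21 CPM (0.717 to 21.7) (log2 change 0.70 ± 0.18, FDR = 0.00352). The days overlapped in all 3, with a few day 45 libraries far above the rest. SIGLEC8 and CCR3 had log2 changes of 0.14 ± 0.07 and 0.17 ± 0.14 and were not called. ALOX5, the 5-lipoxygenase gene, named after its values were seen, had a median of 8.30 CPM at day 28 (range 0.930 to 21.4) and 16.1 CPM at day 45 (range 3.15 to 85.3) (log2 change 1.05 ± 0.25, FDR = 0.00266). Monocyte markers had 1 of 17 called higher, the costimulatory gene CD86 (0.26 ± 0.06, FDR = 0.00166), and 3 lower, a share below the 21.7% over all genes. Those lower were C1QC (-0.39 ± 0.15, FDR = 0.0465), C1QA (-0.35 ± 0.14, FDR = 0.0634) and MS4A7 (-0.22 ± 0.09, FDR = 0.0766). The calls of C1QA and MS4A7 were lost without some single animals, for example C1QA without animal 29 (FDR = 0.106) and MS4A7 without animal 54 (FDR = 0.130). How far the shifts in these cell markers bear on the other lists was not tested.

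Among Toll-like receptors and inflammasome genes 15 of 33 were called higher and 3 lower, with a median of 0.14. TLR4, the receptor for lipopolysaccharide, rose from 50.2 CPM (30.4 to 74.97) to 70.5 CPM (36.05 to 114.4) (log2 change 0.48 ± 0.07, FDR = 3.36e-05), TLR7 (0.37 ± 0.06, FDR = 4.81e-05) and IL1R1 (0.35 ± 0.07, FDR = 0.000556) rose, and IRAK1, a kinase downstream of these receptors, fell in all 26 cattle, from 122.5 CPM (104.3 to 137) to 106.7 CPM (92.6 to 120.8) (log2 change -0.18 ± 0.02, FDR = 2.40e-06). TNF and NF-kB feedback genes had 12 of 30 called higher and 2 lower, with NFKB1 (0.18 ± 0.02, FDR = 7.61e-06), TNFAIP3 (0.37 ± 0.08, FDR = 0.000708) and CD83 (0.22 ± 0.05, FDR = 0.00115) rising. Among STAT targets and suppressors of cytokine signalling 12 of 28 rose and 2 fell, led by PIM1 (0.32 ± 0.05, FDR = 6.01e-05), STAT3 (0.23 ± 0.05, FDR = 0.000635), SOCS3 (0.46 ± 0.10, FDR = 0.00110) and JAK2 (0.22 ± 0.05, FDR = 0.00229). Eicosanoid genes had 9 of 19 higher and 2 lower. PTGES3, a prostaglandin E synthase that is also an HSP90 cochaperone, rose (0.25 ± 0.04, FDR = 2.81e-05), as did PTGER4 (0.30 ± 0.05, FDR = 8.02e-05) and PLA2G7 (0.38 ± 0.07, FDR = 9.82e-05), and PTGS1, cyclooxygenase 1, which platelets express, fell (-0.45 ± 0.09, FDR = 0.000515).

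Type I interferon-stimulated genes had 11 of 41 called higher and 0 lower. DTX3L (0.31 ± 0.09, FDR = 0.00729), PARP14 (0.28 ± 0.08, FDR = 0.0116), HERC5 (0.28 ± 0.08, FDR = 0.0129) and TRIM25 (0.18 ± 0.06, FDR = 0.0268) rose, but the mean level of the list was higher in only 17 of 26 cattle, with changes from -1.02 to 1.38 between animals. Interferon-gamma response genes had 8 of 23 called higher (14 without animal 40 or animal 54) and 1 lower: SOCS3, IDO1 (0.32 ± 0.10, FDR = 0.0107) and IRF1 (0.34 ± 0.10, FDR = 0.0141) rose and VAMP5 (-0.12 ± 0.04, FDR = 0.0112) fell. MHC class II presentation had 6 of 15 called higher and 0 lower, with BOLA-DRA from 1655 CPM (1251 to 3070.2) to 2084 CPM (1442 to 3468) (log2 change 0.25 ± 0.06, FDR = 0.00155), BOLA-DRB3 (0.26 ± 0.05, FDR = 0.000656), BOLA-DMB (0.14 ± 0.04, FDR = 0.00775) and CTSS (0.15 ± 0.05, FDR = 0.0203). BOLA genes are polymorphic and have close relatives, so their counts are uncertain.

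In metabolism, glycolysis and glucose uptake had 13 of 28 called higher and 1 lower. The glucose transporter SLC2A3 rose from 356 CPM (243 to 486) to 448 CPM (238 to 683) (log2 change 0.33 ± 0.06, FDR = 9.82e-05), BNIP3L (0.18 ± 0.03, FDR = 0.000119) and PGK1 (0.14 ± 0.03, FDR = 0.000396) rose, and PDK1, which holds pyruvate back from the mitochondria, fell (-0.38 ± 0.07, FDR = 0.000171). Fatty acid oxidation genes driven by PPAR had 5 of 25 higher, a share near the 16.8% over all genes, and 0 lower, with a median of 0.01. PLIN2, a lipid droplet protein (0.29 ± 0.06, FDR = 0.000486), ACAA1 (0.12 ± 0.04, FDR = 0.0166), ACAA2 (0.12 ± 0.04, FDR = 0.0312) and ECI1 (0.09 ± 0.04, FDR = 0.0665) were among those higher. The call of ECI1 was lost without some single animals, for example animal 43 (FDR = 0.1100). Cholesterol genes had 5 of 32 called each way (3 to 7 higher and 3 to 9 lower when single cattle were left out), LSS lower (-0.15 ± 0.03, FDR = 0.000669) and MYLIP (0.16 ± 0.04, FDR = 0.00233) and NSDHL (0.12 ± 0.04, FDR = 0.0233) higher. Cytosolic ribosomal proteins had 5 of 78 higher and 0 lower (27 higher, or 34.6%, without animal 54), with RPS15A (0.31 ± 0.07, FDR = 0.00188), RPL30 (0.23 ± 0.06, FDR = 0.00329), RPL26 (0.20 ± 0.06, FDR = 0.0174) and RPL37 (0.19 ± 0.06, FDR = 0.0224). Proteasome subunits had 4 of 32 higher and 0 lower. The count was 20 without animal 54, 0 without animal 43 and 0 with upper-quartile factors, and each of PSMD7, PSMA7, ADRM1 and PSMB5 lost its call without some single animal.

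Among genes that handle the supplemented metals, those for zinc, manganese and copper were called at shares near those over all genes (16.8% higher and 21.7% lower). Zinc and manganese transport and metallothionein genes had 5 of 21 called each way (3 to 5 higher and 2 to 7 lower when single cattle were left out), and SLC39A1 (0.18 ± 0.03, FDR = 0.000248) and SLC39A9 (0.09 ± 0.02, FDR = 0.000415), zinc importers, rose while SLC39A11 (-0.18 ± 0.03, FDR = 0.000169) and SLC39A2 (-0.13 ± 0.03, FDR = 0.000518) fell. Copper genes had 3 of 15 called each way (1 higher without animal 43): STEAP4, a metalloreductase, rose from 95.3 CPM (39.4 to 256) to 159 CPM (47.9 to 318) (log2 change 0.61 ± 0.17, FDR = 0.00675), and CCS, the copper chaperone of superoxide dismutase (-0.16 ± 0.04, FDR = 0.00223), the exporter ATP7B (-0.30 ± 0.09, FDR = 0.00983) and CP, ceruloplasmin (-0.28 ± 0.11, FDR = 0.0534), fell. Cobalamin genes had 2 of 15 higher, LMBRD1 (0.08 ± 0.03, FDR = 0.0365) and TCN1, a cobalamin carrier of neutrophil granules (0.46 ± 0.17, FDR = 0.0400). Antioxidant enzymes had 8 of 30 higher and 3 lower. SRXN1, sulfiredoxin, fell from 72.8 CPM (40.33 to 132) to 52.3 CPM (31.5 to 101.3) (log2 change -0.48 ± 0.07, FDR = 2.76e-05) in 25 of 26 cattle, SOD3 fell (-0.87 ± 0.15, FDR = 0.000135), and TXNRD1 (0.12 ± 0.03, FDR = 0.00126) and GPX3 (0.27 ± 0.06, FDR = 0.00181) rose.

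Red cell genes did not move as a block. Erythroid and heme synthesis genes had 4 of 31 called each way, with TFRC, the transferrin receptor (-0.27 ± 0.06, FDR = 0.000747), UROS (-0.21 ± 0.05, FDR = 0.00265), FECH (-0.14 ± 0.04, FDR = 0.00690) and TRIM58 (-0.35 ± 0.10, FDR = 0.00700) lower. HBB, beta globin, and ALAS2, the erythroid 5-aminolevulinate synthase, named after their values were seen, were not called (log2 changes 0.70 ± 0.47 and 0.20 ± 0.44), and ALAS2 had medians from 32.1 CPM (7.40 to 256) to 66.4 CPM (4.02 to 666). Haptoglobin, heme clearance and iron genes had 4 of 20 called each way, near the shares over all genes (16.8% higher and 21.7% lower). BLVRA, biliverdin reductase, rose (0.22 ± 0.04, FDR = 0.000263), and SLC11A2 (-0.14 ± 0.03, FDR = 0.000716), TFRC and TFR2 (-0.41 ± 0.10, FDR = 0.00268) fell. CYP3A4, a liver enzyme on the list for tissues other than blood, had 0.18 ± 0.14.

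Over all 39 lists, some of which share genes, the medians of healthy and BRD cattle had the same sign in 34. The signs differed for T cell markers (0.06 in healthy and -0.09 in BRD cattle), copper genes (-0.09 and 0.005) and endoplasmic reticulum chaperones (0.06 and -0.007). They also differed for splicing factors (-0.02 and 0.002) and tissues other than blood (0.68 and -0.99). Among the leading genes of each set fitted alone, CYP2J2, an epoxygenase, rose from 4.67 CPM (1.94 to 9.14) to 8.06 CPM (1.73 to 16.5) over all cattle, with 0.97 ± 0.10 in healthy and 0.61 ± 0.17 in BRD cattle. DACH1 (0.72 ± 0.13, FDR = 0.000175) rose, and ZNF287 (-0.40 ± 0.05, FDR = 5.55e-06) and RPS6KL1 (-0.49 ± 0.09, FDR = 0.00021) fell, in all 12 healthy cattle. DCAF12 (0.26 ± 0.03, FDR = 2.54e-06), NCAPD3 and CTPS1, a nucleotide synthase (-0.26 ± 0.03, FDR = 1.14e-06), led in the BRD set and moved the same way in 11 of 12 healthy cattle.

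**Figure D4:**
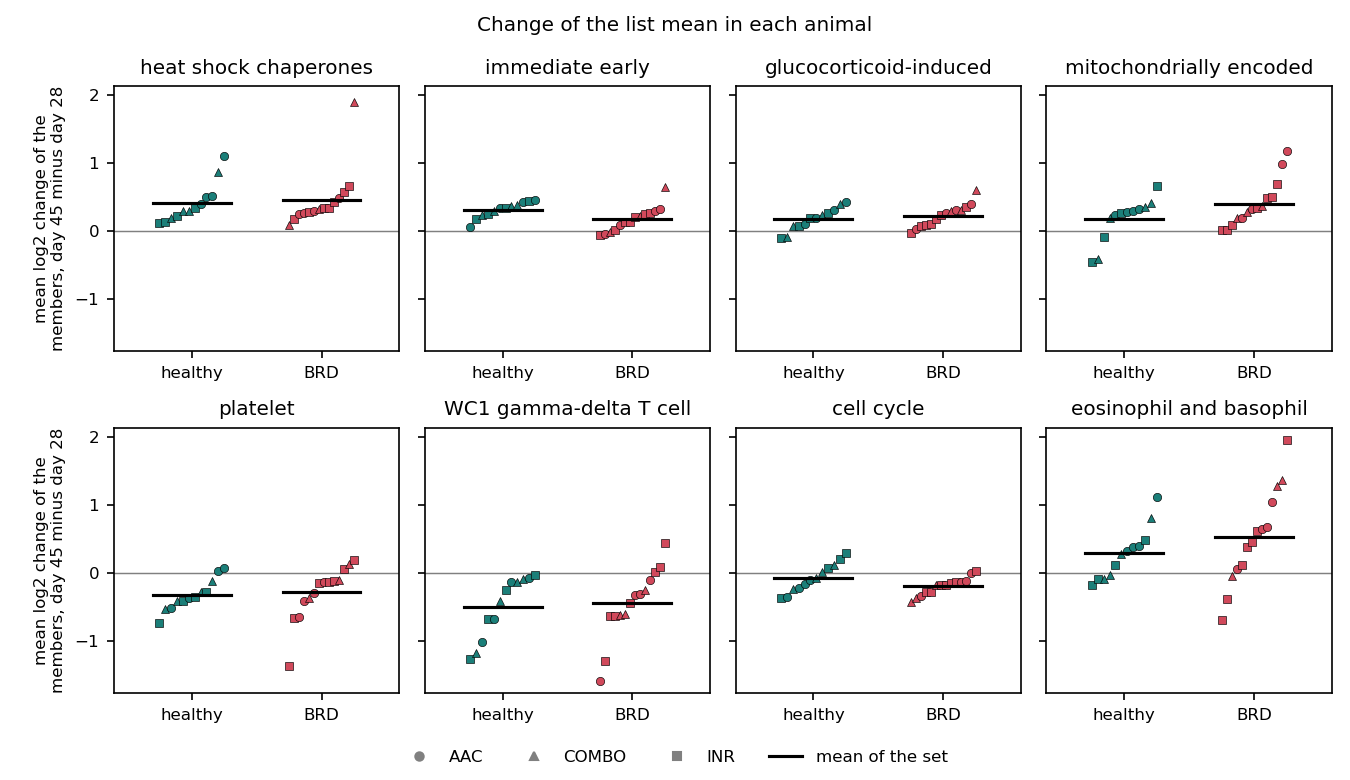
Change from day 28 to day 45 in the mean log2 level of 8 gene lists, with a point for each animal, shapes for the supplement and a line for the mean of the 12 healthy or 14 BRD cattle. All 26 points for heat shock chaperones are above 0, and the highest, at 1.90, is a BRD COMBO animal.

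The change between days was not detectably different among supplements. Tested with both differences from INR together, 0 genes were called by edgeR, 711 had an unadjusted p below 0.05 and the smallest FDR was 0.973, while limma voom called 0 and DESeq2 called 2, NCKAP1 and SLC39A5. SLC39A5, a zinc transporter, had log2 changes of 0.32 in AAC, -0.68 in COMBO and -0.03 in INR (unadjusted p = 0.000118), and NCKAP1, a subunit of the WAVE complex, 0.37 in AAC, 0.56 in COMBO and -0.18 in INR (unadjusted p = 0.000194). The other 3 genes of smallest p were NYX, SNRNP27 and LPCAT3. Fitted alone, the 8 AAC cattle gave 4037 called genes, the 11 INR cattle 1100 and the 7 COMBO cattle 5, at common dispersions of 0.0428, 0.0621 and 0.0645. Groups of unequal size and spread give unequal counts, and such counts do not test a difference between supplements. Supplement, enrollment pen and disease overlap in these cattle.

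The change of single animals was compared with the mean change of the rest. The correlation across genes between the change of an animal and the mean change of the others ranged from -0.0047 to 0.41 (median 0.24) and was above 0 in 25 of 26 cattle, and the mean change made up 10.6% of the summed squared change. The median was 0.24 in both healthy and BRD cattle. With 1 library per animal and day, the remaining part specific to an animal and the error of a library cannot be told apart.

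The levels at days 28 and 45 were set beside those of the other days for the genes with the clearest changes. Scaled over all libraries of the series, the medians in order of day (0, 13, 28, 45, 60) were 82.86, 76.2, 72.02, 112.4 and 95.36 CPM for DNAJA1. For CIRBP they were 95.1, 99.98, 95.8, 68.9 and 74.9 CPM. DNAJA1 had its highest median at day 45, with day 60 next, and CIRBP its lowest at day 45, with day 60 next. HSPA8 had medians of 958, 959, 842, 1341 and 1158 CPM, and RBM3 of 71.9, 82.1, 81.1, 59.4 and 63.6 CPM. For COX1 they were 5433, 5957, 5518, 6989 and 6705 CPM, highest at day 45. TUBB1 had 360.1, 627, 764, 496 and 611 CPM, with its highest median at day 28 and its lowest at day 0. TYMS had 19.002, 23.4, 23.1, 18.9 and 19.9 CPM. These medians are a description without a test, and neighbouring days overlapped in range for each of these genes.

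**Figure D5:**
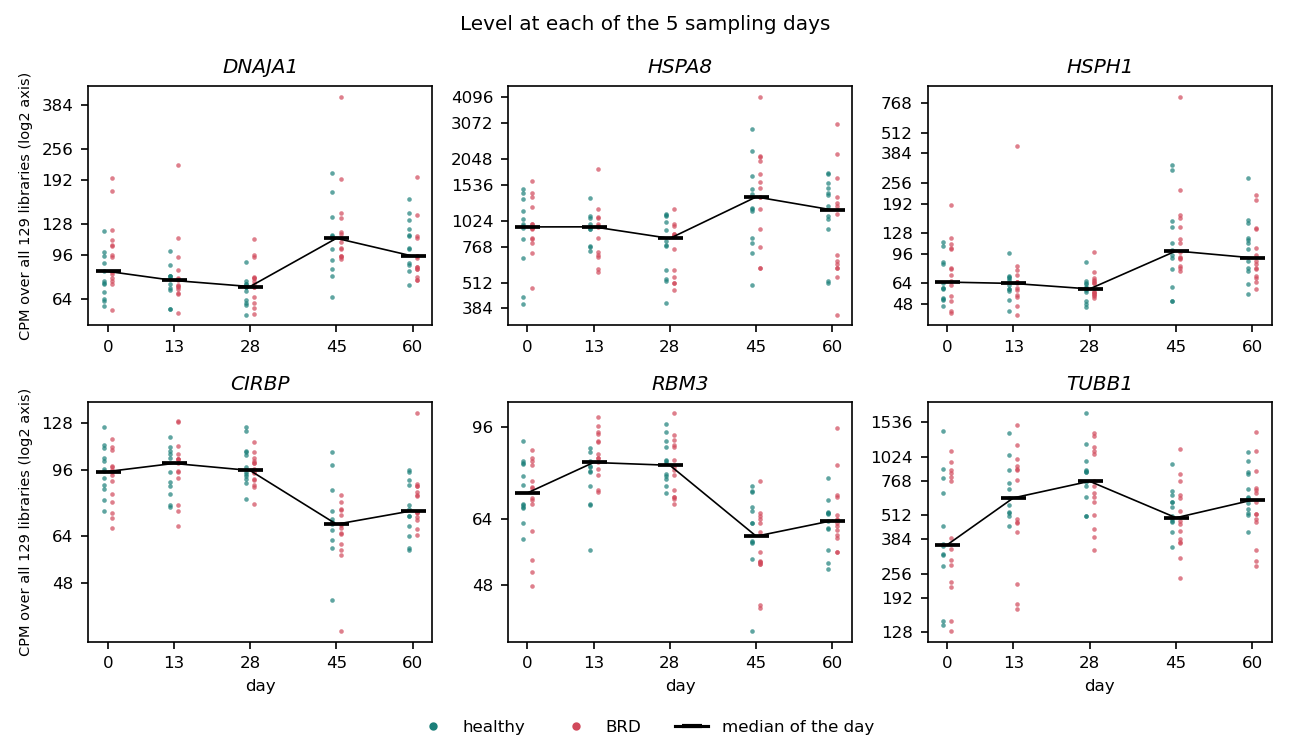
Levels of 6 genes at each of the 5 sampling days, in CPM after TMM scaling over all libraries on a log2 axis, with a point for each library and a bar for the median of the day. DNAJA1, HSPA8 and HSPH1 have their highest medians at day 45, CIRBP and RBM3 their lowest at day 45, and TUBB1 its highest at day 28.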

How the data were processed

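Whole blood RNA was sequenced as stranded mRNA libraries. Read pairs were trimmed by the authors with Trimmomatic and mapped with HISAT2 to ARS-UCD1.3, a bovine genome build. StringTie then assembled the transcripts, and prepDE gave counts per gene from coverage and a read length of 150 bases. The submitters' processing notes name FastQC 0.11.9, Trimmomatic 0.39, HISAT2 2.1.1, StringTie 2.2.0 and edgeR 3.36.0. The deposited table holds these counts for 32395 genes, without normalization. They are estimates from coverage and not direct tallies of reads.

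From these counts, a negative binomial model with the animal as a block was fitted in R 4.3.3 with edgeR 4.0.16 (TMM factors, a common dispersion of 0.0570, or a biological CV of 23.9%, filterByExpr over the 2 days, quasi-likelihood F-tests, Benjamini-Hochberg, FDR below 0.10), which kept 16294 of the 32395 genes. Healthy and BRD cattle were also fitted alone, and the difference between them and among supplements was tested over all cattle. Replicates were separate animals. The numbers that pair the libraries are animal identities in the labels, and libraries of the same animal deviated together from the day means (correlation 0.27 to 0.60, over 0.1 in 26 of 26 pairs). No libraries of the same day agreed within counting noise. Alternatives were no block, RLE and upper-quartile factors, a trended dispersion, DESeq2 1.42.0, limma 3.58.1 with voom, other filters, an FDR below 0.05, all libraries of the series and each animal left out. Supplements alone, lists within subsets, the agreement under each alternative, lists without each animal and the fit without 5 cattle with collagen transcripts were added after seeing the data.

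Named genes are the 10 of smallest p in each direction, up to 4 called members of each list by p (the member of smallest p where none is called), 5 of smallest p for each difference and 3 in each direction in healthy and in BRD cattle. Symbols that begin with LOC or MSTRG were left out of the overall ranking, the differences and the rankings within healthy and within BRD cattle. Some genes that this rule names are not reported here. Any other gene is marked as named after its values were seen or given as a list member for comparison. The comparison, the 39 lists (1090 genes, 990 tested) and the tests were chosen with earlier results of these data known. On simulated data for the comparison of all cattle, with 16118 genes, edgeR recovered 63.6% of genes changed by 0.25, 81.5% by 0.5 and 95.2% by 1 on the log2 scale, and 12.4% of its calls were false. Only 66, 65 and 63 genes were changed at these sizes and genes were drawn independently. The recovery and the false share may thus differ in the real data. Plots used matplotlib 3.10.9 in Python 3.11.15.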

Additional observations from a re-analysis of the deposited data

Results flagged for a closer look

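Within AAC and within COMBO cattle, the changes of the leading genes and lists were screened for an animal far from the rest by Dixon's test at 95%. INR cattle were not screened. Of 54 groups tested 5 met it, and chance flags about 1 in 20.

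UBE2R2 rose by 0.474 on the log2 scale in AAC animal 34, above 0.0856 to 0.234 in the other 7 AAC cattle. The heat shock list was also highest in that animal, at 1.11 against 0.255 to 0.512 in the other AAC cattle. CARD6 rose by 0.332 in COMBO animal 54, against 0.152 to 0.221 in the other COMBO cattle. CIRBP had a change of -1.26 in COMBO animal 18, against -0.573 to -0.193 in the other COMBO cattle, and that animal had the largest chaperone change of all 26, at 1.90. The mitochondrially encoded list changed by -0.410 in COMBO animal 3, while the other COMBO cattle lay between 0.187 and 0.419. What sets these libraries apart was not tested.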

How the results depend on the processing

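Without the replicate block, calls fell from 6283 to 3080 in all cattle, from 3186 to 1068 in healthy and from 3142 to 353 in BRD cattle, and the genes called in both sets from 1508 to 158. Of the 3080 genes, 3051 were among the 6283, all in the same direction. An FDR below 0.05 left 1849 calls in healthy cattle, 1857 in BRD cattle and 758 shared. Testing genes without a filter left 958 shared calls. AAC cattle alone gave 4037 calls, INR cattle 1100 and COMBO cattle 5. DESeq2 called 6 genes for the difference between BRD and healthy cattle and 2 among supplements, against 0 by edgeR.

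Leaving out each animal gave 5793 to 6993 calls in all cattle, 2023 to 3837 in healthy cattle and 2160 to 3874 in BRD cattle, and 0 to 0 for both differences. The lowest count in healthy cattle, 2023, came without animal 34. With upper-quartile factors the split of higher and lower calls shifted to 935 and 2100 in healthy cattle (1317 and 1869 with TMM) and to 1009 and 2222 in BRD cattle (1427 and 1715 with TMM). The same factors moved the calls of several lists by more than 1.5 times: plasma cell to 1 higher, proteasome to 0 higher, respiratory chain to 2 higher, fatty acid oxidation to 3 higher and 1 lower, cholesterol to 3 higher and 9 lower, zinc and manganese to 8 lower (2 with RLE factors), copper to 1 higher, cobalamin to 1 higher and antioxidants to 5 lower. Leaving out animal 54 moved the members called higher to 27 of 78 cytosolic ribosomal proteins (5 with all cattle), 29 of 76 respiratory chain genes (5), 20 of 32 proteasome subunits (4), 21 of 60 splicing factors (11) and 14 of 23 interferon-gamma genes (8). Leaving out single cattle also moved the higher count to 5 for eosinophil and basophil markers (without animal 30), 3 for B cells (43), 7 for cytotoxic lymphocytes (29), 1 for copper (43) and 3 for zinc and manganese (34). In monocytes, plasma cells, cholesterol and zinc and manganese, and in some counts of 5 or fewer, several single animals moved a count by more than 1.5 times. Without the 5 cattle that have a library with over 100 CPM of collagen transcripts, 5394 genes were called. The total counts of called genes stayed within 1.5 times under the alternatives not named here. Of 186 named genes 183 were called, 51 lost the call without the block, 9 lost it without some animal, and 0 changed sign under these alternatives. The call was also lost by 16 in the fit of all libraries of the series. With upper-quartile factors 6 lost it, without a filter 4 and by limma voom 1. Why these counts moved was not tested. With 36848682 counts or more in each library, depth limits mainly the genes of low level.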

Other observations

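Across the 26 cattle, the animals with the larger rise of DNAJA1 had the larger fall of CIRBP. Pearson's r of the log2 changes was -0.756 (permutation p = 6.00e-05, adjusted 0.000360) and Spearman's rho -0.628 (permutation p = 0.000780, adjusted 0.00468), two-sided with 100000 resamples and adjusted over 6 relations. Leaving out the 2 cattle farthest from the median of DNAJA1 gave r = -0.479. Within disease sets r was -0.709 in healthy and -0.784 in BRD cattle, and within supplements -0.951 in AAC, -0.833 in COMBO and -0.505 in INR cattle. Both changes come from the same pair of libraries in each animal. The other 5 relations with DNAJA1, chosen like this pair after the data were seen, were weaker. Pearson's r was -0.347 for RBM3 (adjusted permutation p = 0.168), 0.437 for ATF3 (0.0797), 0.260 for ANXA1 (0.298), 0.158 for COX1 (0.522) and -0.106 for TUBB1 (0.607). For ATF3 the adjusted permutation p of Spearman's rho was 0.254, and r was 0.0979 without the 2 farthest cattle.

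Of the 33 called genes that changed by at least 1 on the log2 scale, 5 that belong to no list are named here after their values were seen. SLC38A4, an amino acid transporter, had a median of 12.1 CPM at day 28 (range 0.314 to 74.7) and 27.32 CPM at day 45 (range 1.41 to 132) (log2 change 1.89 ± 0.61, FDR = 0.0193 by edgeR). PDCD1LG2, which encodes the checkpoint ligand PD-L2, had a median of 0.657 CPM at day 28 (range 0.162 to 4.87) and 2.17 CPM at day 45 (range 0.116 to 11.1) (log2 change 1.302 ± 0.44, FDR = 0.0250). FRRS1, a ferric reductase, rose from 0.202 CPM (0 to 0.784) to 0.533 CPM (0 to 2.11) (log2 change 1.299 ± 0.33, FDR = 0.00413). AUH, an enzyme of leucine breakdown, fell from 1.78 CPM (0.0388 to 4.50) to 0.507 CPM (0 to 2.64) (log2 change -1.45 ± 0.30, FDR = 0.000637), and KCNN4, a calcium-activated potassium channel of lymphocytes and red cells, fell from 7.75 CPM (1.37 to 51.4) to 3.11 CPM (1.03 to 49.50) (log2 change -1.14 ± 0.41, FDR = 0.0353). The ranges of the days overlapped in all 5.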
